A study of Mus musculus with 18 samples.

Results

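Potassium channel genes of the mouse spinal cord were examined in SMNΔ7 mice, a model of spinal muscular atrophy (SMA), over the first 10 days after birth. Members were the gene loci of the deposited table that carried a single symbol of the Kcn family, were not antisense or pseudogene names, and had an expression level of 1 FPKM or more in at least 1 of 6 groups. FPKM is the number of fragments per kilobase of transcript, scaled to depth, so it compares genes per length. Of 58570 loci, 95 had such a symbol and 69 of these reached the level, carrying 66 symbols. All 69 matched an annotated gene of GENCODE M21 on GRCm38 and overlapped it. The members comprised 23 voltage-gated alpha subunits, 8 modifier alpha subunits that act with voltage-gated partners, 11 inward rectifiers, 7 two-pore channels, 6 calcium- and sodium-activated channels and 14 loci of auxiliary subunits.

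Potassium channels let potassium leave or enter the cell and so set the resting potential, the shape of the action potential and the firing pattern of neurons. Voltage-gated channels open on depolarisation, two-pore channels carry the resting leak, inward rectifiers hold the membrane near the potassium potential and, in glia, take up potassium released by active neurons, and calcium-activated channels follow spikes with a pause. In the spinal cord the first days after birth are a time of myelination and of astrocyte maturation, when axonal and glial channels take up their adult places.

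RNA came from whole spinal cords at postnatal days 2, 6 and 10 (P2, P6 and P10). Homozygous animals of the SMNdelta7 strain were the SMA groups and heterozygous animals the controls, with 3 labelled libraries in each of 6 groups. As background, the line carries human SMN transgenes beside the disrupted mouse Smn1, and the labels do not state the sex or litter of the animals. The authors' tables hold 1 value per group with a model interval, so no spread between libraries could be computed, and every level below is the authors' group value. The estimated fragments per group totalled 6881671 to 7386338, of which the members held 0.306% to 0.376%. In whole tissue, fewer cells of a type and less RNA per cell cannot be told apart.

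Smn1, the gene disrupted in the SMA animals, checked the labels before any result. Its level was 2.70, 4.46 and 3.54 FPKM in control cord at P2, P6 and P10. It was 0.0210 FPKM at P2 and listed at 0 at P6 in SMA cord, but 2.82 FPKM in the group labelled SMA at P10, 79.8% of the control value at that age. The SMA label at P10 was therefore not borne out by this gene, and directions drawn from that group are those of the libraries labelled SMA. Levels of oligodendrocyte markers also stood apart by group. The summed level of the 8 marker loci found, of 9 listed and with none at 0, was 276.5, 1824 and 7634 FPKM in control cord at P2, P6 and P10, against 3479, 2058 and 4250 FPKM in SMA cord. The SMA group at P2 thus lay above both P6 groups. The summed level of 7 astrocyte marker loci was 429, 658 and 1034 FPKM in control and 753, 739 and 804 FPKM in SMA cord. Neuronal markers, at 904, 765 and 671 FPKM in control and 796, 817 and 758 FPKM in SMA cord, were present in every group.

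The pore of these channels is lined by a short selectivity filter, which is shown because it is what the pore-forming classes share beyond their names. The coding sequence of each member was read from the GENCODE M21 transcripts and searched in frame for 5 codons, for threonine or serine, then valine, isoleucine or leucine, then glycine, then tyrosine, phenylalanine or leucine, then glycine. All 55 pore-forming symbols held a match and none of the 11 auxiliary symbols did, while 1.34% of 21562 protein-coding symbols did. Of the 7 two-pore genes, whose product carries a pair of pore loops, 6 held 2 matches and Kcnk1 held 1. A narrower search, for threonine and then valine or isoleucine, found no match in many pore-forming symbols. Among them were Kcnc1, Kcnc2, Kcnc4, all Kcnd and Kcnn members, Kcnj14 and every Kcnh member but Kcnh5. The count of matches therefore depends on the choices allowed and is a description with no test. In the windows below the 5 filter codons are in capitals, with 9 flanking bases on either side.
Kcna1: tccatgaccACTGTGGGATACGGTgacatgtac
Kcnd2: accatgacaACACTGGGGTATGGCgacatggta
Kcnh4: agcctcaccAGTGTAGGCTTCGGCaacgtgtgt
Kcnj10: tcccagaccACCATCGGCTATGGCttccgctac
Kcnk9, first pore: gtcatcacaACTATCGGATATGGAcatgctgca
Kcnk9, second pore: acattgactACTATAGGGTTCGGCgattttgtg
Kcnt1: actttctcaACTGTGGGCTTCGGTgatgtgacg
These windows stand for the voltage-gated, inward rectifier, two-pore and sodium-activated classes, and the genes are those whose values are given below.

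The members spanned a mean level over the 6 groups from 0.665 FPKM for a Kcnmb1 locus to 27.4 FPKM for Kcnk9. Of the 69 loci, 49 were at FPKM 1 or more in all 6 groups. Of the 7 that reached it in 1 group alone, 4 did so in control cord at P10, so their values had to differ and the class summaries below include them. Just inside the threshold were Kcnmb1 at a highest level of 1.04 FPKM, Kcng2 at 1.06 FPKM and Kcnf1 at 1.07 FPKM. Just outside were another Kcnmb1 locus at 0.974 FPKM, Kcnq1 at 0.937 FPKM and Kcnk7 at 0.751 FPKM. The summed level was 403, 420 and 505 FPKM in control cord at P2, P6 and P10, and 424, 446 and 455 FPKM in SMA cord.

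The voltage-gated alpha subunits carried the largest summed level of any class in every group, from 193 FPKM in SMA cord at P2 to 222 FPKM in control cord at P10. The 11 inward rectifiers together were at 36.3, 44.5 and 86.2 FPKM in control and 53.0, 47.2 and 57.5 FPKM in SMA cord. The 7 two-pore channels were at 42.9, 49.6 and 63.3 FPKM in control and 47.7, 52.1 and 53.4 FPKM in SMA cord. The 6 calcium- and sodium-activated channels stayed between 45.2 and 52.3 FPKM in all groups, and the auxiliary loci between 71.1 and 76.0 FPKM. These sums leave out 7 loci that join a Kcn symbol with another. Among the 7 are those of Kcnma1, Kcnab2 and Kcnip4, whose levels are given below. The inward rectifiers showed the widest range, and the single gene Kcnj10 made up most of it.

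**Figure D1:**
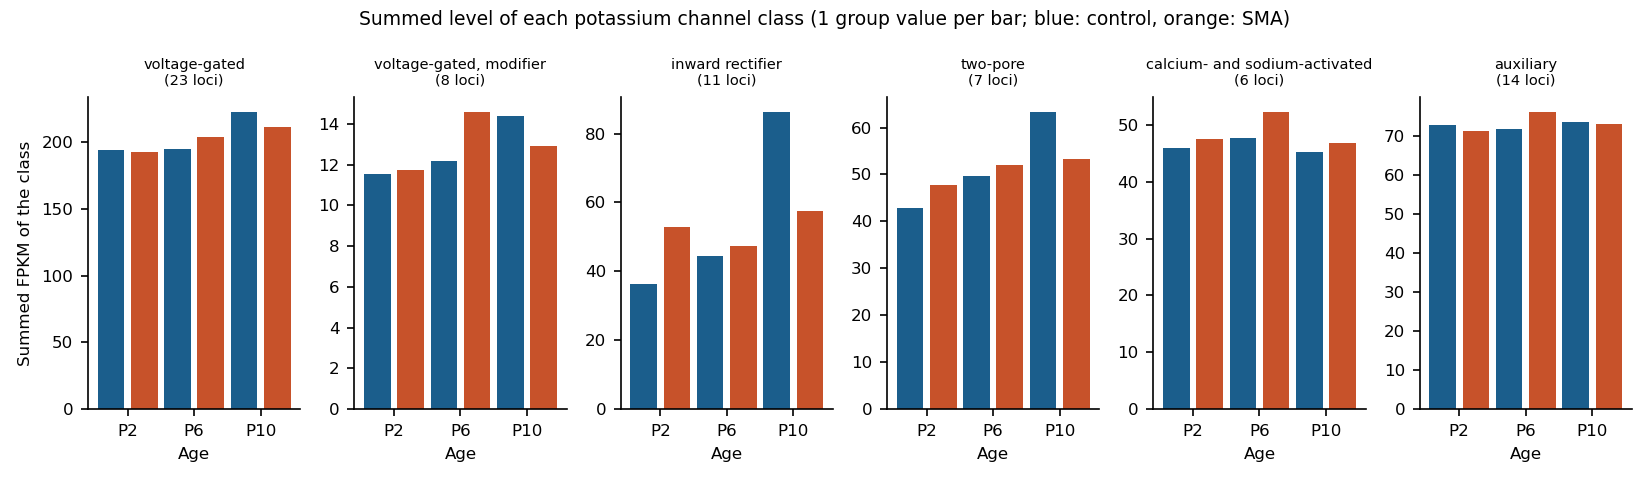
Summed level (FPKM, vertical axis, from 0) of the loci of each class by age, with control in blue and SMA in orange and 1 group value per bar. The inward rectifiers stand at 86.2 FPKM in control cord at P10 against 36.3 FPKM at P2. The sums of the calcium- and sodium-activated and auxiliary members are nearly level. Loci that join a Kcn symbol with another, such as that of Kcnab2, are not in the sums.

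The comparison of control cord at P10 with P2 asks how the channel genes differ over early development. Kcnj10, the potassium-buffering inward rectifier of astrocytes and oligodendrocytes, rose from P2 to P10 and was the only member called. By class, 9 of 11 inward rectifiers and 6 of 7 two-pore channels had a higher value at P10, with median log2 ratios of 0.47 and 0.63. The 31 voltage-gated and modifier subunits were split, with 14 higher and a median of −0.10, and the calcium- and sodium-activated channels had 3 of 6 higher and a median of −0.14. Among the 14 auxiliary loci 9 were higher, with a median of 0.34. Over all 69 members the median was 0.08 and 41 were higher, beside a median of 0.02 and 51.5% higher over all loci at FPKM 1 or more. A ratio of 2-fold or more in either direction was seen for 18 members, or 26.1%, and for 13.0% of all loci.

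Each pair of groups was tested by a z statistic on the log ratio, two-sided, whose standard error came from the deposited interval. P values were adjusted by Benjamini-Hochberg over every locus tested, and a locus was called at an adjusted p under 0.05. Between control P10 and P2 this test called 126 of 19956 loci, or 0.631%. It called 1 of 66 members tested. Of these members 12 had an unadjusted p under 0.05, with 10 higher and 2 lower, where 3.51% of all loci did. Among the 12 were Kcng4, which reached 1 FPKM in control cord at P10 alone, and Kcnh4, which did so in control cord at P2 alone. Their directions, higher and lower, were set by the member rule. The limma model of age over both genotypes, which has 2 residual degrees of freedom, called 3 of 21960 loci, or 0.0137%, and 0 of 69 members. In that model 10 members had an unadjusted p under 0.05, where 15.4% of all loci did, and the smallest adjusted p was 0.282, for Kcnj2.

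**Figure D2:**
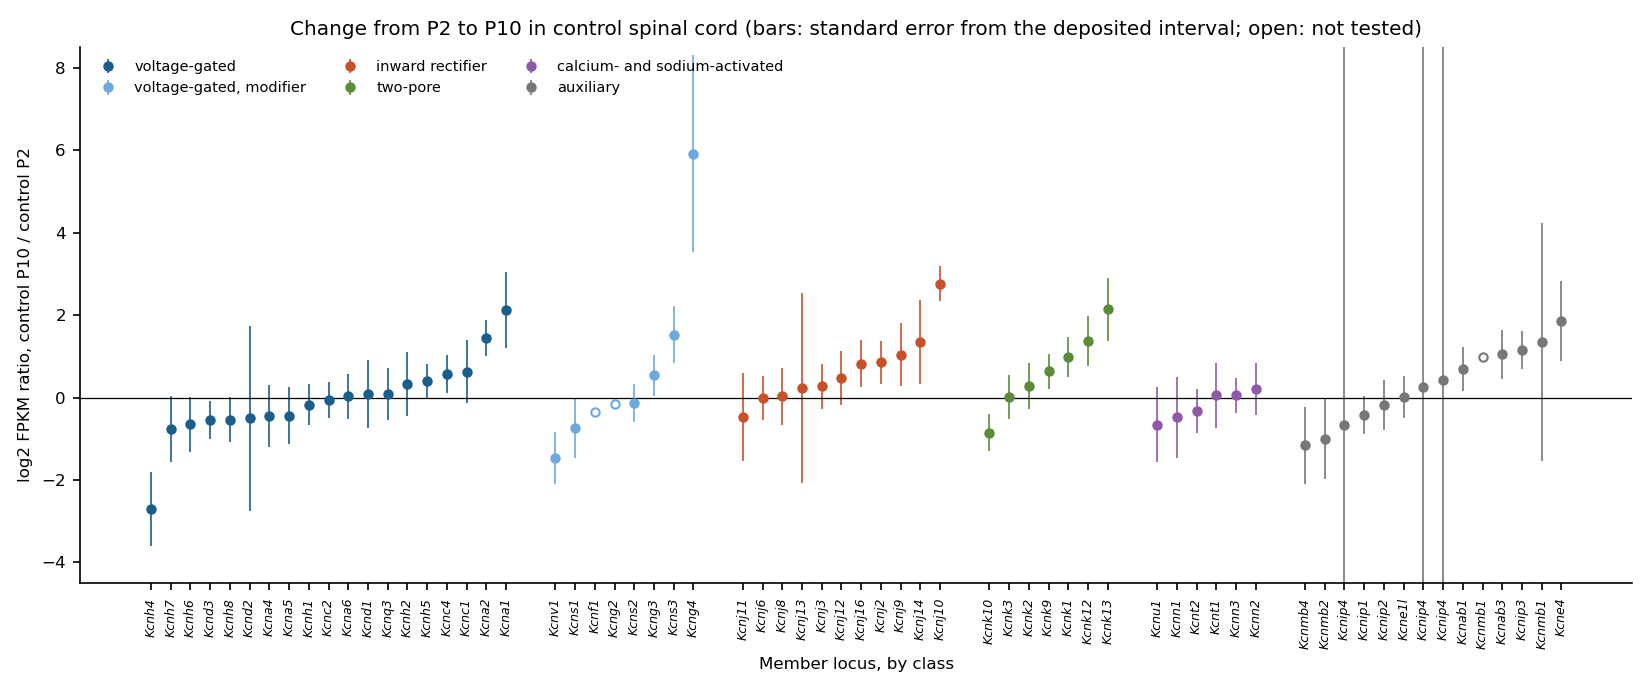
Log2 ratio of FPKM, control P10 over control P2, for 65 of the 69 loci, ordered within each class, with bars of 1 standard error from the deposited interval and open points for loci not tested. Kcnj10 is at 2.76, 6 of 7 two-pore channels are above 0, and the bars of the Kcnip4 loci run off the axis.

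Kcnj10 (chr1:172341210-172374085, plus strand) was at 6.94, 14.7 and 47.1 FPKM in control cord at P2, P6 and P10. In SMA cord it was at 23.7, 16.2 and 24.3 FPKM. The control interval at P10, from 27.6 to 66.6 FPKM, lay above that at P2, from 4.08 to 9.79 FPKM. The control log2 ratio of P10 over P2 was 2.76 ± 0.43 (standard error), a 6.78-fold rise with an adjusted p of 1.15e-07. From P2 to P6 the control log2 ratio was 1.08 ± 0.43, and from P6 to P10 it was 1.68 ± 0.43 with an adjusted p of 0.0846, neither called. The oligodendrocyte markers moved with this gene in the same groups, with 7 of the 8 loci called higher in control cord at P10, and 6 of 7 astrocyte loci had a higher value without a call. Their part in the result was not tested.

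The start of Kcnj10 is shown because it is the member that passed the test. The RefSeq promoter window on GRCm38.p6, chr1:172340960-172341259 on the plus strand, had a GC content of 63.7% and 21 CpG dinucleotides, which are in capitals.
Kcnj10 promoter: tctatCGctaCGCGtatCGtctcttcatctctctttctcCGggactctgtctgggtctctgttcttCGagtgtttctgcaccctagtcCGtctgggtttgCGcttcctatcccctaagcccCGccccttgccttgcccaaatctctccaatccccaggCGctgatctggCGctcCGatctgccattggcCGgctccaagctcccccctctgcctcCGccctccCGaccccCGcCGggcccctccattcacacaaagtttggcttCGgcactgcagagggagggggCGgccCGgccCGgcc
Windows of this length were found for 48 of the member symbols, 68 windows in all, with a median GC content of 60% and a median of 9.5 CpG. Over all 32851 promoter windows the medians were 52.7% and 7.

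No other inward rectifier passed the test. Kcnj16, which forms channels with Kcnj10 in glia, was at 6.81, 8.36 and 11.99 FPKM in control and 8.27, 9.33 and 10.01 FPKM in SMA cord, a control log2 ratio of 0.82 ± 0.57 that did not pass. Kcnj2, a strong inward rectifier whose gene starts 38196 bases from Kcnj16 on chromosome 11, was at 2.05, 2.25 and 3.70 FPKM in control and 1.92, 2.21 and 3.02 FPKM in SMA cord. Both genotypes had their highest Kcnj2 level at P10. Kcnj9, a subunit of G protein-gated channels, lies 11892 bases from Kcnj10 on the opposite strand. Its level was 0.791, 1.51 and 1.62 FPKM in control and 1.51, 1.74 and 1.39 FPKM in SMA cord, far below its neighbour in every group.

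The remaining G protein-gated subunits were nearly level. Kcnj3 ranged from 6.69 to 8.49 FPKM over the 6 groups and Kcnj6 from 3.35 to 4.19 FPKM. The pore subunits of ATP-sensitive channels were low, with Kcnj8, a gene of vascular mural cells, between 0.726 and 1.23 FPKM and Kcnj11 between 2.24 and 4.13 FPKM. Kcnj14, a strong inward rectifier known from motor nuclei, was at 0.704, 0.467 and 1.79 FPKM in control and 0.639, 0.442 and 0.501 FPKM in SMA cord. Control P10 was the only group in which Kcnj14 reached the level of 1 FPKM, and its log2 ratio of 1.35 ± 1.02 did not pass. Kcnj13, an epithelial channel, stayed between 1.71 and 2.80 FPKM on 16.3 to 20.7 estimated fragments.

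Among the voltage-gated alpha subunits, a low-threshold axonal channel had the largest control ratio of P10 over P2, though it was not called. That gene, Kcna1, which clusters beside the nodes of myelinated axons, was at 4.00, 6.95 and 17.4 FPKM in control cord and 10.1, 6.81 and 9.46 FPKM in SMA cord. The highest control and the lowest control value lay on either side of all 3 SMA values. Its control log2 ratio of 2.12 ± 0.92 did not pass (adjusted p = 0.962). Kcna2, its usual partner, was at 9.76, 14.0 and 26.5 FPKM in control and 15.5, 15.1 and 19.1 FPKM in SMA cord, a control log2 ratio of 1.44 ± 0.43 with an adjusted p of 0.0943. Kcna6, another axonal subunit whose gene lies 61945 bases from Kcna1 on chromosome 6, stayed between 13.5 and 17.0 FPKM in all groups. Kcna5, 104985 bases to the other side of Kcna1, was at 0.986 to 1.69 FPKM, so neighbours on the chromosome did not share a level.

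The fast delayed rectifiers of the Kcnc family serve rapid firing. Kcnc1 was at 8.96, 9.997 and 13.9 FPKM in control cord and between 9.78 and 10.999 FPKM in SMA cord. Kcnc2 ranged from 9.76 to 12.4 FPKM and Kcnc4 from 8.56 to 12.7 FPKM over the 6 groups.

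Kcnq3, a subunit of the M-current that holds back repetitive firing, was at 17.9, 19.6 and 19.0 FPKM in control and 17.1, 21.9 and 22.8 FPKM in SMA cord. Its control log2 ratio of 0.09 ± 0.63 did not pass.

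Kcnd2 and Kcnd3, A-type subunits that delay the first spike, had lower control values at P10 than at P2. Kcnd2 was at 29.7, 24.8 and 20.9 FPKM in control and 23.0, 25.9 and 25.8 FPKM in SMA cord. Its interval reached 0 in all 6 groups, and the control log2 ratio of −0.51 had a standard error of 2.25. Kcnd3 was at 10.4, 8.81 and 7.09 FPKM in control and 9.85, 9.73 and 8.49 FPKM in SMA cord, a control log2 ratio of −0.56 ± 0.46. Kcnd1, of the same family, was at 1.88, 1.78 and 1.98 FPKM in control cord, highest at P10. None of the Kcnd genes passed.

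The ether-a-go-go family shapes late repolarisation, and its members did not share a direction in control cord. Kcnh4 was at 1.44, 0.964 and 0.222 FPKM in control and 0.942, 0.815 and 0.841 FPKM in SMA cord, resting on 50.5 estimated fragments in control cord at P2 and 7.34 at P10. Its control log2 ratio of −2.70 ± 0.90 had an adjusted p of 0.240. Kcnh4 reached 1 FPKM in control cord at P2 alone, so a lower control value at P10 followed from the member rule. Kcnh7 was at 9.95, 8.66 and 5.86 FPKM in control and 8.14, 8.09 and 8.74 FPKM in SMA cord, and Kcnh6 was at 1.94, 1.68 and 1.24 FPKM in control cord. Kcnh2, of the same subfamily as these last genes, was at 6.84, 6.42 and 8.53 FPKM in control cord, so it did not share their lower value at P10. None of the Kcnh genes passed the test.

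**Figure D3:**
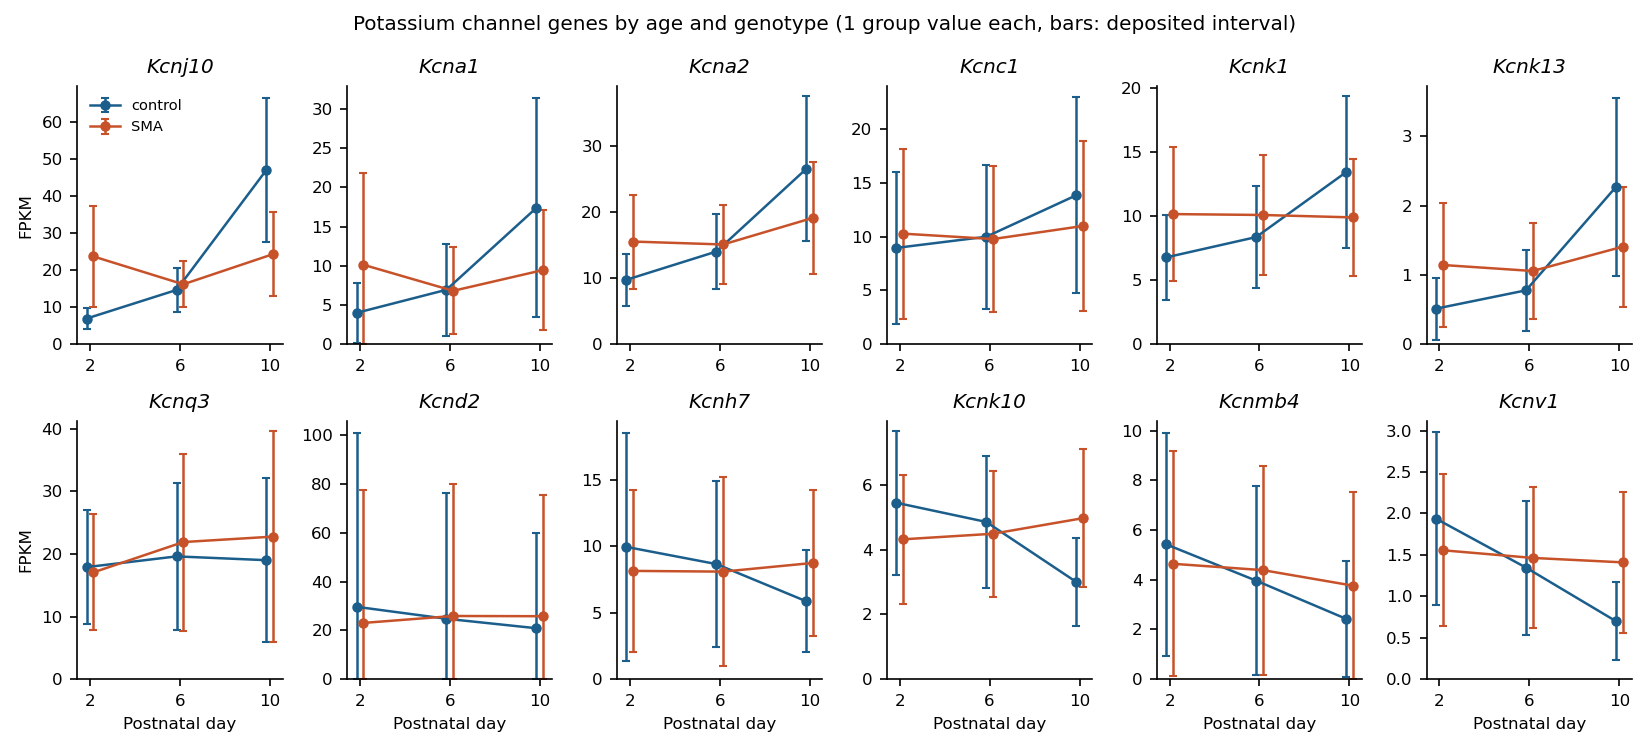
Level (FPKM, vertical axis) of 12 members by postnatal day, with 1 group value per point and the deposited interval as bars. In the upper row control P10 is the highest control point of each gene. In the lower row Kcnq3 lies between 17.1 and 22.8 FPKM and Kcnd2, Kcnh7, Kcnk10, Kcnmb4 and Kcnv1 have their lowest control value at P10.

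The modifier subunits do not form channels alone and tune voltage-gated partners. Kcns2, the most abundant of them, ranged from 4.19 to 6.46 FPKM. Kcns3 was at 0.990, 1.29 and 2.85 FPKM in control and 1.64, 1.56 and 2.15 FPKM in SMA cord, with a control log2 ratio of 1.52 ± 0.69 that did not pass. Kcnv1 went the other way, at 1.94, 1.35 and 0.699 FPKM in control and 1.55, 1.46 and 1.41 FPKM in SMA cord, with a control log2 ratio of −1.47 ± 0.63 and an adjusted p of 0.914. Kcng4 was at 0.0494, 0.478 and 2.98 FPKM in control and 0.933, 0.326 and 0.774 FPKM in SMA cord. The control value of Kcng4 at P2 rested on 1.46 estimated fragments and that at P10 on 95.7, so no fold is given. Kcng3 ranged from 0.932 to 1.45 FPKM, and Kcns1 was at 1.15, 0.941 and 0.691 FPKM in control cord.

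The two-pore channels set the leak conductance. Kcnk9, an acid-sensitive leak channel and the most abundant member, was at 22.5, 27.5 and 34.9 FPKM in control and 24.1, 27.0 and 28.2 FPKM in SMA cord. The order of the ages was the same in both genotypes, and the control log2 ratio of 0.63 ± 0.42 did not pass. Kcnk1, a weak leak channel found in neurons and astrocytes, was at 6.79, 8.37 and 13.4 FPKM in control and 10.2, 10.1 and 9.91 FPKM in SMA cord. Kcnk13, a leak channel known from microglia, was at 0.513, 0.778 and 2.27 FPKM in control and 1.14, 1.06 and 1.41 FPKM in SMA cord. Its control log2 ratio of 2.14 ± 0.76 had an adjusted p of 0.360. The summed level of 5 microglia markers was 43.9 and 59.2 FPKM in control cord at P2 and P10, and their part in the Kcnk13 value was not tested. Kcnk12, its close relative, was at 0.673, 1.07 and 1.74 FPKM in control and between 0.916 and 1.03 FPKM in SMA cord.

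The stretch- and lipid-sensitive members of the class did not move together. Kcnk10 was at 5.46, 4.86 and 3.01 FPKM in control and 4.32, 4.497 and 4.98 FPKM in SMA cord, and it was the only two-pore member with a lower control value at P10 (log2 ratio −0.86 ± 0.45, not called). Kcnk2, of the same subfamily, was at 4.07, 4.48 and 4.95 FPKM in control and 4.17, 5.73 and 5.11 FPKM in SMA cord. Kcnk3, an acid-sensitive leak channel like Kcnk9, was nearly level, from 2.57 to 2.97 FPKM.

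The calcium- and sodium-activated channels, which contribute to the afterhyperpolarisation, had no member at a 2-fold ratio between P2 and P10 in either genotype. Kcnt1, a sodium-activated channel, was at 18.3, 18.01 and 19.0 FPKM in control and 22.0, 22.8 and 18.2 FPKM in SMA cord. Its relative Kcnt2 was at 7.60, 7.02 and 6.04 FPKM in control and 6.10, 7.88 and 7.29 FPKM in SMA cord. Among the small-conductance calcium-activated channels, Kcnn2 stayed between 10.1 and 11.7 FPKM, Kcnn3 between 3.75 and 5.66 FPKM and Kcnn1 between 2.46 and 4.70 FPKM. Kcnu1, known from mouse sperm, was at 1.11 to 1.86 FPKM. The large-conductance channel Kcnma1 was in a locus joined with another symbol and is not a member; that locus was at 19.2, 17.3 and 16.3 FPKM in control cord.

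Auxiliary subunits alter trafficking and gating. Kcnip1, a calcium sensor that binds the A-type subunits, was at 28.1, 24.0 and 21.0 FPKM in control and 23.1, 27.8 and 24.6 FPKM in SMA cord. This is the same order of control ages as for Kcnd2 and Kcnd3. Kcnip3 ran the other way, at 4.49, 6.82 and 10.1 FPKM in control and 6.16, 7.35 and 6.95 FPKM in SMA cord, with a control log2 ratio of 1.16 ± 0.46 and an adjusted p of 0.639. Kcnip2 stayed between 4.65 and 6.06 FPKM. The 3 Kcnip4 member loci held 2.02 to 9.11 estimated fragments each. Their standard errors were above 30 on the log2 scale, so their ratios could not be resolved. A further locus joined Kcnip4 with another symbol, outside the member rule. That locus was at 15.1, 15.9 and 17.9 FPKM in control and 14.2, 17.8 and 19.0 FPKM in SMA cord.

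The partners of the axonal Kcna channels had higher control values at P10. Kcnab1 was at 6.29, 8.41 and 10.1 FPKM and Kcnab3 at 2.62, 3.21 and 5.43 FPKM in control cord at P2, P6 and P10. In SMA cord Kcnab1 stayed between 7.97 and 8.21 FPKM and Kcnab3 between 3.94 and 4.27 FPKM. Kcnab2 was in a joined locus, outside the member rule, which was at 10.8, 13.5 and 24.7 FPKM in control and 20.4, 15.6 and 15.5 FPKM in SMA cord. None of these ratios was called.

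Of the beta subunits of the large-conductance channel, Kcnmb4 and Kcnmb2 had lower control values at P10 than at P2, while both Kcnmb1 loci had higher ones. Kcnmb4, the neuronal form, was at 5.42, 3.96 and 2.43 FPKM in control and 4.64, 4.39 and 3.76 FPKM in SMA cord. Kcnmb2, an inactivating form, was at 4.28, 3.32 and 2.14 FPKM in control and 3.52, 2.78 and 2.68 FPKM in SMA cord. Both genotypes had their lowest value at P10, and the control log2 ratios were −1.16 ± 0.93 and −1.001 ± 0.98, not called. The antisense loci Kcnmb4os1 and Kcnmb4os2 were at 5.90 and 4.41 FPKM in control cord at P2 and at 1.84 and 1.69 FPKM at P10. The library kit keeps strand, but the strand setting of the counting was not stated, so reads of Kcnmb4 and its antisense partners cannot be told apart. The same holds for Kcnmb1, which overlaps Kcnip1 on the opposite strand and which had a pair of member loci between 0.386 and 1.46 FPKM. Kcne4, a small inhibitory subunit, was at 0.443, 0.872 and 1.61 FPKM in control cord, and Kcne1l ranged from 7.73 to 9.74 FPKM.

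The steps within control maturation were each smaller. Between P2 and P6 the z test called 22 of 19622 loci, or 0.112%, and 0 of 62 members, with 1 member, Kcnj10, at an unadjusted p under 0.05, beside 0.637% of all loci. Between P6 and P10 it called 15 of 19974 loci, or 0.0751%, and 0 of 65 members, with 5 higher at an unadjusted p under 0.05, among them Kcnj10, Kcng4, Kcnk13 and Kcna2, where 1.12% of all loci were under it. Kcng4 reached 1 FPKM in control cord at P10 alone, so its direction from P6 to P10 was set by the member rule. The test on the deposited counts and their variance called 0 members in both steps.

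The comparison of SMA with control cord at each age asks how the model differs from its controls. No member passed the z test at any age. At P2 the test called 24 of 19114 loci, or 0.126%, and 0 of 59 members, with 1 at an unadjusted p under 0.05, beside 0.743% of all loci. At P6 it called 9 of 19631 loci, or 0.0458%, and 0 of 63 members, with none at an unadjusted p under 0.05. At P10 it called 8 of 20157 loci, or 0.0397%, and 0 of 65 members, with 2 lower at an unadjusted p under 0.05, beside 0.213% of all loci. The test on counts also called 0 members at each age.

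The class medians of the SMA over control log2 ratio, with the modifier subunits joined to the voltage-gated ones, were small at P2 and P6. At P2 they were −0.09 for the voltage-gated with modifier subunits, −0.07 for inward rectifiers, 0.10 for two-pore channels, −0.16 for calcium- and sodium-activated channels and −0.02 for auxiliary loci, beside −0.01 over all loci. By direction at P2, 23 of the 31 voltage-gated with modifier loci were lower and 6 of 7 two-pore loci were higher. Among the two-pore loci counted as higher, Kcnk3 and Kcnk2 were nearly level, at 0.0009 and 0.03. Kcnh4, among the 23, reached 1 FPKM in control cord at P2 alone, so its direction was set by the member rule. Of all loci 48.8% were higher at that age. At P6 all 5 of these class medians lay between −0.02 and 0.09, beside 0.06 over all loci. On the deposited counts the calcium- and sodium-activated median was 0.02 and the auxiliary median −0.04, each of the opposite sign. The 8 modifier subunits taken alone were at 0.26 at P6, with 7 higher, where 58.6% of all loci were higher. At P10 the inward rectifiers were at −0.29 with 9 of 11 lower and the two-pore channels at −0.31 with 5 of 7 lower. Among the 9 was Kcnj14, whose direction was set by the member rule, as it reached 1 FPKM in control cord at P10 alone. The median over all loci was 0.05 at P10, with 55.9% higher. The voltage-gated with modifier subunits were at 0.11, the calcium- and sodium-activated channels at 0.03 and the auxiliary loci at −0.14. On the deposited counts the voltage-gated with modifier median was −0.01, so its sign depended on the measure. The inward rectifiers and the two-pore channels also had the highest control medians from P2 to P10, and that comparison shares the control P10 group with this one.

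**Figure D4:**
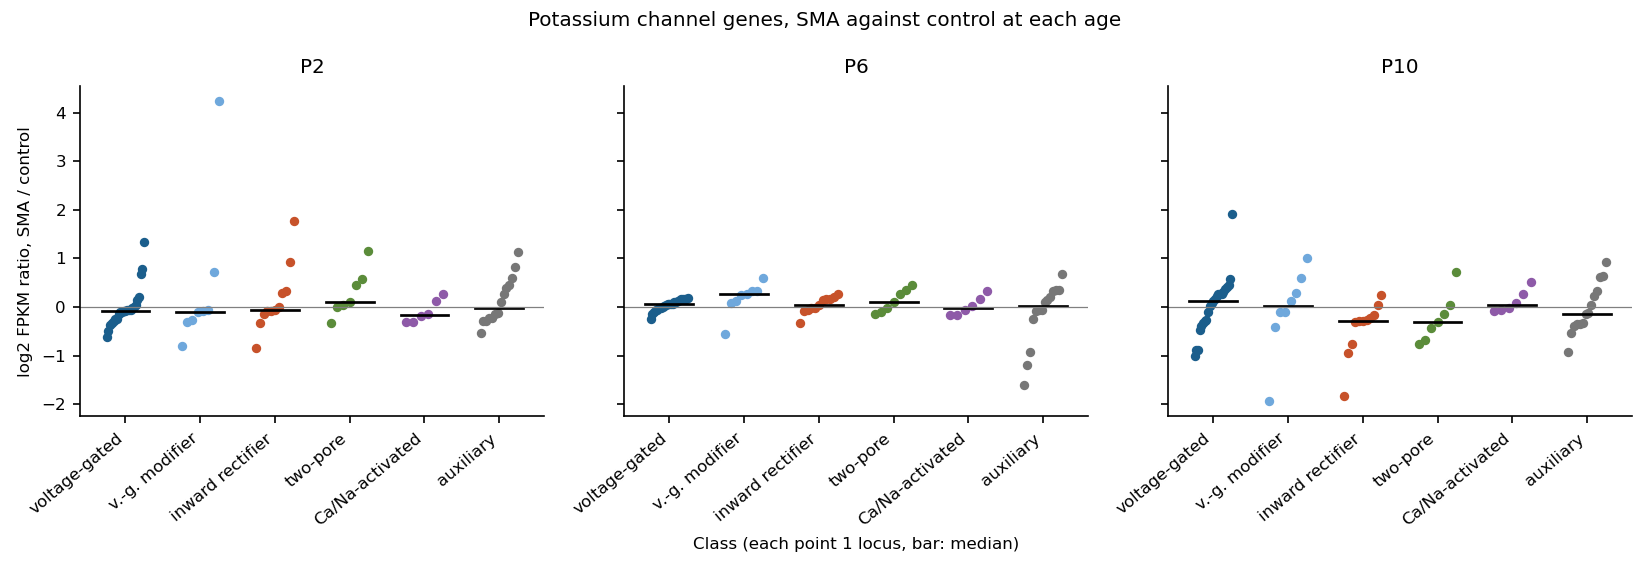
Log2 ratio of FPKM, SMA over control (vertical axis), for each member locus by class at P2, P6 and P10, with the class median as a bar. The points are closest to 0 at P6, and at P10 the inward rectifier and two-pore medians lie at −0.29 and −0.31.

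Kcnj10 had the smallest p of any member between the genotypes. At P2 its SMA over control log2 ratio was 1.77 ± 0.52, 3.42-fold higher, with an adjusted p of 0.325. At P6 the ratio was 0.14 ± 0.41, and at P10 it was −0.95 ± 0.46, both with an adjusted p of 1.00. Oligodendrocyte markers had a median log2 ratio of 3.92 at P2, with 3 of 8 loci called higher, of 0.16 at P6 and of −0.81 at P10. Their part in the Kcnj10 values was not tested. The other member lower at P10 at an unadjusted p under 0.05 was Kcng4, with a log2 ratio of −1.94 ± 0.84. Kcng4 reached 1 FPKM in control cord at P10 alone, so the direction of this ratio was set by the member rule.

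Averaged over the 3 ages, no genotype difference of a single member was called, though some exceeded their standard errors. Kcnj11 had the smallest p of any member, with a log2 difference of −0.30 ± 0.15. In the limma model with age and genotype, 1 of 21960 loci was called, or 0.00455%, and 0 of 69 members were, with none at an unadjusted p under 0.05. Leaving out the P2, the P6 or the P10 groups in turn also left 0 members called. One member, Kcnk2, was higher in SMA cord at all 3 ages, or 1.45%, where 11.9% of all loci were. Another 7 members, or 10.1%, were lower at all 3 ages, where 6.86% of all loci were. Among those 7 loci were Kcnj2, Kcnj3, Kcnj11, Kcnj14, Kcnu1 and 1 of the Kcnip4 loci. Kcnj14 reached 1 FPKM in control cord at P10 alone, so its direction at P10 was set by the member rule.

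The change from P2 to P10 was narrower in SMA than in control cord. In SMA cord the z test called 12 of 19938 loci, or 0.0602%, and 0 of 61 members, with none at an unadjusted p under 0.05 and none by the test on counts. The median size of the log2 ratio of P10 over P2 was 0.54 in control and 0.18 in SMA cord over the 69 members. It was larger in control for 56 of them, or 81.2%, and for 60.2% of all loci, whose medians were 0.35 and 0.24. A ratio of 2-fold or more was seen for 18 members in control and for 1, a Kcnip4 locus of few fragments, in SMA cord, beside 12.8% and 7.10% of all loci. Of the 18, 4 reached 1 FPKM in control cord at P10 alone, so their control value at P10 had to lie above that at P2. A count chosen after seeing the data left out these 4, Kcng4, Kcne4, Kcnj14 and a Kcnmb1 locus. The control change was then larger for 52 of 65 members and reached 2-fold for 14 of them. Kcnh4, which reached 1 FPKM in control cord at P2 alone, is still in these counts. Among loci with a mean of at least 1 FPKM over the 6 groups, also chosen after seeing the data, it was larger for 49 of 59 members, or 83.1%, and for 61.4% of all such loci. A 2-fold control change was then seen for 13 members, or 22.0%, and for 9.40% of all such loci. The class medians of the SMA change were 0.10 for the voltage-gated with modifier subunits, 0.10 for inward rectifiers and 0.20 for two-pore channels. They were 0.12 for calcium- and sodium-activated channels and 0.10 for auxiliary loci, beside 0.06 over all loci. The 8 modifier subunits taken alone were at 0.24. On the deposited counts the calcium- and sodium-activated median was −0.05 and the auxiliary median −0.03, each of the opposite sign, beside −0.01 over all loci. The SMA groups at P2 and P10 are also those that stood apart in the oligodendrocyte markers and in Smn1, and the part of these in the narrower change was not tested.

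**Figure D5:**
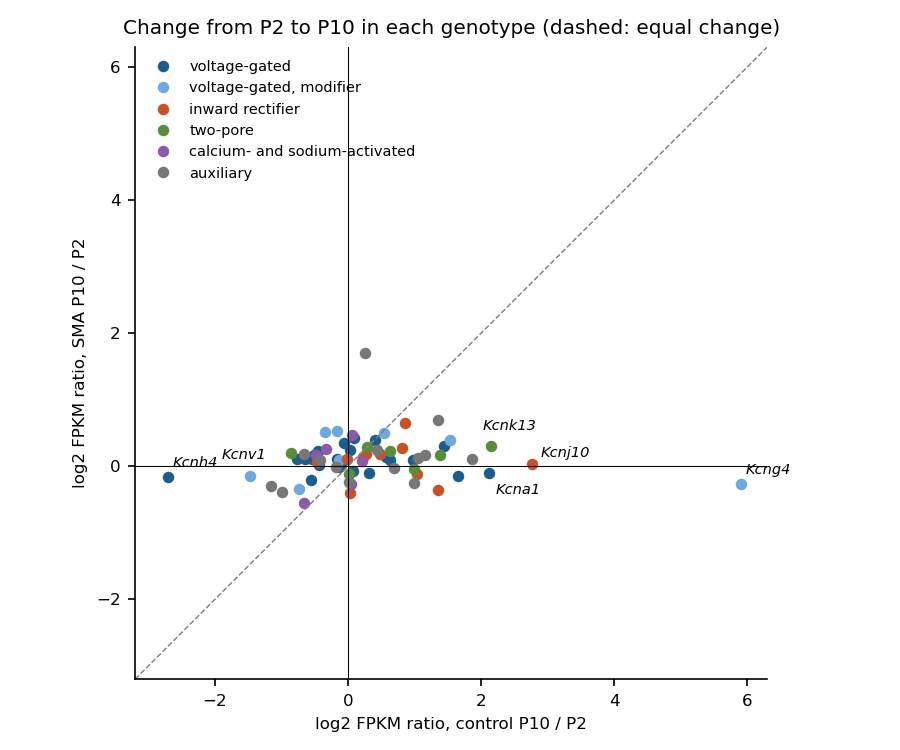
Log2 ratio of FPKM, P10 over P2, in control (horizontal axis) and SMA cord (vertical axis) for the 69 member loci, coloured by class, with the line of equal change dashed. The points spread along the horizontal axis, from Kcnh4 at −2.70 to Kcnj10 at 2.76, with Kcng4 further right on 1.46 estimated fragments in control cord at P2. They lie within 1 of 0 on the vertical axis, apart from a Kcnip4 locus at 1.70 with few fragments.

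The difference between these changes was tested directly. The z test called 12 of 20916 loci, or 0.0574%, and 0 of 67 members, with 4 at an unadjusted p under 0.05, where 0.894% of all loci did. Kcnj10 had a difference of −2.72 ± 0.69 on the log2 scale, with an adjusted p of 0.0874. Also among the 4 were Kcnh4 at 2.54 ± 1.21 and Kcng4, which rests on the few fragments given above. Kcnh4 reached 1 FPKM in control cord at P2 alone, and Kcng4 did so in control cord at P10 alone. The direction of their control changes was thus set by the member rule. Kcna1 had a difference of −2.22 ± 1.39 and Kcnk13 of −1.84 ± 1.06, and neither reached an unadjusted p under 0.05. On the deposited counts and their variance, 1 member was called, Kcnj10.

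A list of 44 channel partners and potassium transport genes that the member rule does not take gave context. It was found at 41 loci, of which 39 were tested and 3 were called higher and 0 lower in control cord at P10 against P2. The 3 were Lgi3, a secreted partner of axonal Kcna clusters, at 6.09 and 23.1 FPKM, Slc12a2, a sodium, potassium and chloride cotransporter, at 12.1 and 39.2 FPKM, and Atp1b2, a glial sodium pump subunit, at 46.9 and 138 FPKM. The list's median log2 ratio was 0.33 with 32 loci higher. Of all loci tested 0.631% were called, and 51.5% of all loci at FPKM 1 or more were higher. None of the list's loci was called between SMA and control cord at any age, where its median was 0.08 at P2, 0.06 at P6 and −0.20 at P10. Of all loci tested 0.126%, 0.0458% and 0.0397% were called at these ages.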

How the data were processed

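Total RNA from whole spinal cords was sequenced with a ribosomal RNA-depleted stranded kit, per the labels' protocols. Per the submitters' processing notes, reads were processed on GRCm38 with TopHat2 2.1.1 over Bowtie2 2.2.4, then Cufflinks 2.2.1 and Cuffdiff, with FastQC and Picard also named; the annotation, strand setting and scaling are not given in the sources used here. The authors' table holds FPKM per locus and group with the lower and upper bound of a model interval in the same unit. Expected counts, deposited in a second table, give the fragments estimated for each locus in each group and a variance of the count. They were not whole and totals were near equal, so they describe a scaled level.

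The z test read the interval as 95%. A locus entered a test if either group was at FPKM 1 or more, neither was at 0 and Cuffdiff marked it OK. The robust standard deviation of z was 0.262 to 0.470 over the comparisons, below that of a standard normal, and the test made few calls. limma 3.58.1 in R 4.3.3 was fitted with a trend and with terms for age and genotype to log2(FPKM + 1), 1 value for each of 6 groups. Its folds understate low genes. P values were adjusted by Benjamini-Hochberg over all loci tested, and no count model was used. The procedures were first checked on simulated data. With 1 value per group, p-values reflect the authors' model and not a spread between animals.

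Class medians have no test. Named genes were the 4 most abundant of each class, the 10 with the largest control P10 over P2 ratio in each direction, the 6 with the largest mean genotype difference in each direction, the 6 with the largest difference of changes, those called, those nearest the threshold and a fixed list; others are given as ranges or where a count needed them. The members, classes, lists and tests were chosen with earlier results of these data known. Alternatives were the counts and their variance, FPKM 5 or more, no filter, median centring, a pseudocount of 0.1, limma without a trend, and the interval read as that of 1 of 3 libraries. Single results of some members are not reported here, though they stay in the counts and sums.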

Additional observations from a re-analysis of the deposited data

Results flagged for a closer look

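Among the members, 4 differed between the genotypes in their change from P2 to P10 at an unadjusted p under 0.05 in the z test of the difference, and none after Benjamini-Hochberg adjustment over all loci. Kcnj10 had a difference of −2.72 ± 0.69 on the log2 scale (adjusted p = 0.0874), with a control change of 2.76 and an SMA change of 0.04. Kcnh4 had a difference of 2.54 ± 1.21 (adjusted p = 1.00), with 7.34 estimated fragments in control cord at P10. Kcng4 had a difference of −6.18 ± 2.68 (adjusted p = 1.00), a value set by 1.46 estimated fragments in control cord at P2 and not a bound. Kcnh4 reached 1 FPKM in control cord at P2 alone, and Kcng4 did so in control cord at P10 alone. The direction of their control changes was thus set by the member rule. The SMA groups at P2 and P10 entered all of these differences. The oligodendrocyte marker sum in those groups was 3479 and 4250 FPKM against 276.5 and 7634 FPKM in control cord.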

How the results depend on the processing

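No paired analysis was possible because the tables hold 1 value per group, so no fit with a replicate block and none without each replicate could be made. Kcnj10 was called in control P10 against P2 under every alternative of the z test that was run. The limma age term over both genotypes did not call it (1.32 ± 0.56, adjusted p = 0.342). With the interval read as that of 1 of 3 libraries, the members called were 1 for SMA against control at P2, 15 for control P10 against P2 (12 higher, 3 lower), 1 for control P6 against P2, 5 for control P10 against P6 and 4 for the difference of changes. With the counts and their variance they were 3 for control P10 against P2 (Kcna1, Kcna2 and Kcnj10) and 1 for the difference of changes (Kcnj10). At FPKM 5 or more, 1 was called (Kcnj10) for control P10 against P6 and 1 (Kcnj10) for the difference of changes. In the other alternatives, the limma fits included, the members called did not differ in number from those reported. Over all loci, the counts gave 0 calls between genotypes at P6 and 0 at P10, 216 for control P10 against P2, 12 for control P6 against P2, 2 for SMA P10 against P2 and 23 for the difference of changes. The library reading gave 123 calls at P2, 26 at P6 and 22 at P10 between genotypes, 920, 98 and 207 for control P10 against P2, P6 against P2 and P10 against P6, 44 for SMA P10 against P2 and 163 for the difference of changes. At FPKM 5 or more the difference of changes gave 20, without a filter control P10 against P6 gave 10. For limma, the genotype term gave 12, 15 and 6 calls without the P2, P6 and P10 groups, and 0 at FPKM 5 or more, without a filter, without a trend and from counts. Its age term gave 5 with a pseudocount of 0.1, 5 without the P6 groups, 1 at FPKM 5 or more, 2 without a filter and 0 from counts. Of 114 alternative values for single members none changed direction, and of 50 for class medians 5 changed sign, each within the spread of its class. The median log2 level of all loci differed from that of control P2 by at most 0.13, in SMA cord at P10. Members with few fragments, Kcnip4, Kcnmb1 and Kcng4 among them, are limited by depth.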
